A study of Homo sapiens with 21 samples.

Results

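Matrix metalloproteinases and their tissue inhibitors were followed through IMR90 human lung fibroblasts that were proliferating or had been made senescent by ionising radiation. The 10 genes were chosen by symbol: 7 metalloproteinases (MMP1, MMP2, MMP3, MMP10, MMP11, MMP12 and MMP14) and 3 inhibitors (TIMP1, TIMP2 and TIMP3). All 10 were among the 16383 genes of the expression table, and 9 had enough reads to be tested. MMP11, the exception, had 1 read in 1 of 21 libraries, which belonged to CCND1 knockdown. In the 20 libraries without a read, a count of 0 allows a normalised read count of up to 2.13 to 3.64 (3 reads), for counting error only.

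Matrix metalloproteinases are zinc endopeptidases, mostly secreted as inactive proenzymes, which cut collagens and other proteins of the extracellular matrix. MMP1 is the interstitial collagenase, MMP3 and MMP10 are stromelysins, MMP12 is the macrophage metalloelastase, MMP2 is gelatinase A and MMP14 is a membrane-anchored enzyme that activates pro-MMP2 with the help of TIMP2. TIMPs bind the active site of these enzymes, and secreted metalloproteinases are a known part of the secretory phenotype of senescent fibroblasts.

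The study sequenced polyadenylated RNA in 7 groups of 3 libraries. In 6 of the groups the cells were irradiated, given siRNA at 5 nM on days 4 and 7 and harvested on day 10. These received 1 of the non-targeting siRNAs NT3 or NT4, siRNA to CCND1 (the gene of cyclin D1), to CDK4, to CDK6, or to CDK4 and CDK6 at once, which is called the dual knockdown here. Cyclin D1 is the regulatory partner of the kinases CDK4 and CDK6. Proliferating cells had no irradiation and no siRNA, so in comparisons with them the 2 treatments cannot be told apart. The labels name 1 siRNA per target, so actions of a reagent beyond its target cannot be told apart from those of the target, and they call the controls NT3 and NT4 where the series' design text has other numbers. No label says that the 3 libraries of a group came from separate cultures, so the p-values measure the spread between these libraries only.

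Levels are normalised read counts (reads divided by a size factor of the library), and each comparison used log2 of that value plus 1. Reads in the table's genes numbered 12892442 to 21822152 per library. Knockdown left 11.8% of CCND1, 8.67% of CDK4 and 16.4% of CDK6 in their own groups, and 9.41% of CDK4 with 20.6% of CDK6 in the dual knockdown. All 10 fibroblast markers were detected in each library, led by COL1A1, and their summed level ran from 389212 to 799944, with its highest values in the dual knockdown (620486 to 799944). Of 10 macrophage and leukocyte markers, 6 stayed under 10 in all libraries, AIF1 had no read and PTPRC, the pan-leukocyte CD45, ran from 0 to 8.90. Most of that list's summed level was CD68, a lysosomal protein that fibroblasts make too (650.2 to 1588). Epithelial markers summed to 1727 to 2920 and endothelial markers to 1778 to 4522, led by KRT18 and TEK. The part of such markers in the results was not tested. In these bulk samples, fewer cells of a kind and less RNA per cell cannot be told apart. The library that stood most apart from its own group was NT3 replicate 3: its log2 deviations over the tested genes had an SD of 0.344, against 0.193 to 0.256 in the rest. Where its omission changes a call, that value is given beside the result.

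Promoter sequences of MMP10, TIMP1 and TIMP3 are shown first, and those of MMP11 and MMP14 are described by their matches only. Any link between these letters and the levels of the members was not tested. RefSeq promoters (GRCh38.p14) matched 5 of the 10 members: MMP10, MMP11, MMP14, TIMP1 and TIMP3. The 250 bases before the start were searched on both strands for the AP-1 site TGANTCA, its variant TGAGTAA, the ETS core AGGAAG, the TATA box TATAAA and the GC box GGGCGG. Capitals mark these matches, which did not overlap each other. Each sequence is written 5′ to 3′ on the gene's own strand.

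MMP10, chr11:102780629-102780878, minus strand: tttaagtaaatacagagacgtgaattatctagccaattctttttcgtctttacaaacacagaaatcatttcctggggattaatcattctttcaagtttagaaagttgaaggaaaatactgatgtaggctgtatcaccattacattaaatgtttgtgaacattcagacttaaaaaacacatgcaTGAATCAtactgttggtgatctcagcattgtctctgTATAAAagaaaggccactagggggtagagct

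TIMP1, chrX:47582186-47582407, plus strand: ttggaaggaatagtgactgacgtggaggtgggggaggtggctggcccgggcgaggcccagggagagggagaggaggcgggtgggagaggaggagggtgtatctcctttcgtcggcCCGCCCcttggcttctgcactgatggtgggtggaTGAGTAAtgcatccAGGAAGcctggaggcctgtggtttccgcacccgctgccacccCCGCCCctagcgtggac

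TIMP3, chr22:32801455-32801704, plus strand: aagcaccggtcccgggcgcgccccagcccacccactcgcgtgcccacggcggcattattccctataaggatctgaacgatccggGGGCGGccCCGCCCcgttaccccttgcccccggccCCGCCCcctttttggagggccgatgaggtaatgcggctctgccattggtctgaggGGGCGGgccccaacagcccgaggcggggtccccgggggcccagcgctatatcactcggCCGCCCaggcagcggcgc

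The MMP10 window, with a GC content of 34.4%, held 1 AP-1 site 67 to 61 bases before the start and 1 TATA box 31 to 26 bases before it. Of 35116 human promoter windows of the same length, 6.57% held the AP-1 letters and 10.7% the TATA letters. TIMP1 held the AP-1 variant, ending 95 bases before the RefSeq start, and an ETS core at 87 to 82 bases before it, motifs present in 2.21% and 28.7% of windows, and 2 GC boxes. Its last 28 bases before that start are left out because the GENCODE gene model begins earlier. TIMP3, with a GC content of 72.4%, held 5 GC boxes and none of the other letters. GC boxes were found in 42.6% of all windows, and also in those of MMP14 (1) and MMP11 (3). The MMP11 window (chr22:23772599-23772848) lies before the RefSeq start but inside the longer GENCODE gene. The last 25 bases of the MMP14 window also lie past the GENCODE start of that gene. A match describes these letters only.

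On GRCh38, 4 members lie together on chromosome 11, all on the minus strand and within 104.5 kb: MMP10 (ENSG00000166670, chr11:102770502-102780628), MMP1 (ENSG00000196611, chr11:102789401-102798160), MMP3 (ENSG00000149968, chr11:102835801-102843609) and MMP12 (ENSG00000262406, chr11:102862736-102874982). Each has 10 exons in its canonical transcript. MMP2 (ENSG00000087245) is at chr16:55389700-55506691, MMP14 (ENSG00000157227) at chr14:22836560-22849041 and MMP11 (ENSG00000099953) at chr22:23768226-23784316. TIMP1 (ENSG00000102265) is at chrX:47582408-47586789 within SYN1, and TIMP3 (ENSG00000100234) at chr22:32801705-32863041 within SYN3, each on the strand opposite to its host and with 0 exonic bases shared. TIMP2 (ENSG00000035862) is at chr17:78852977-78925387. Exons of MMP1 overlap 150 bases of the antisense pseudogene WTAPP1, and those of TIMP2 overlap 367 bases of an antisense noncoding RNA. Another transcript on the same strand covers 174 exonic bases of MMP2. Whether counting used strand is not given in the sources used here, so reads of these overlaps cannot be told apart. Among the 45 pairs of members, only the transcripts of MMP3 and MMP10 shared any run of 50 bases, with 59 shared runs out of 1773 in MMP3 and 1710 in MMP10.

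Senescent controls were set against proliferating cells to describe the members before any knockdown. Of 9 members tested, 8 were higher in the 6 control libraries (limma, Benjamini-Hochberg adjusted), where 68.6% of the 11579 genes tested passed in either direction and 32.6% as higher. The libraries of the arms did not overlap for any of the 8; among all genes 25.2% were higher without overlap. The stromelysins and MMP12 had the steepest differences, MMP1 and TIMP1 rose together by about the same amount, and the highly expressed MMP2, MMP14 and TIMP3 rose by less. The members' median log2 fold change was 1.59, against -0.03 over all genes tested.

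**Figure D1:**
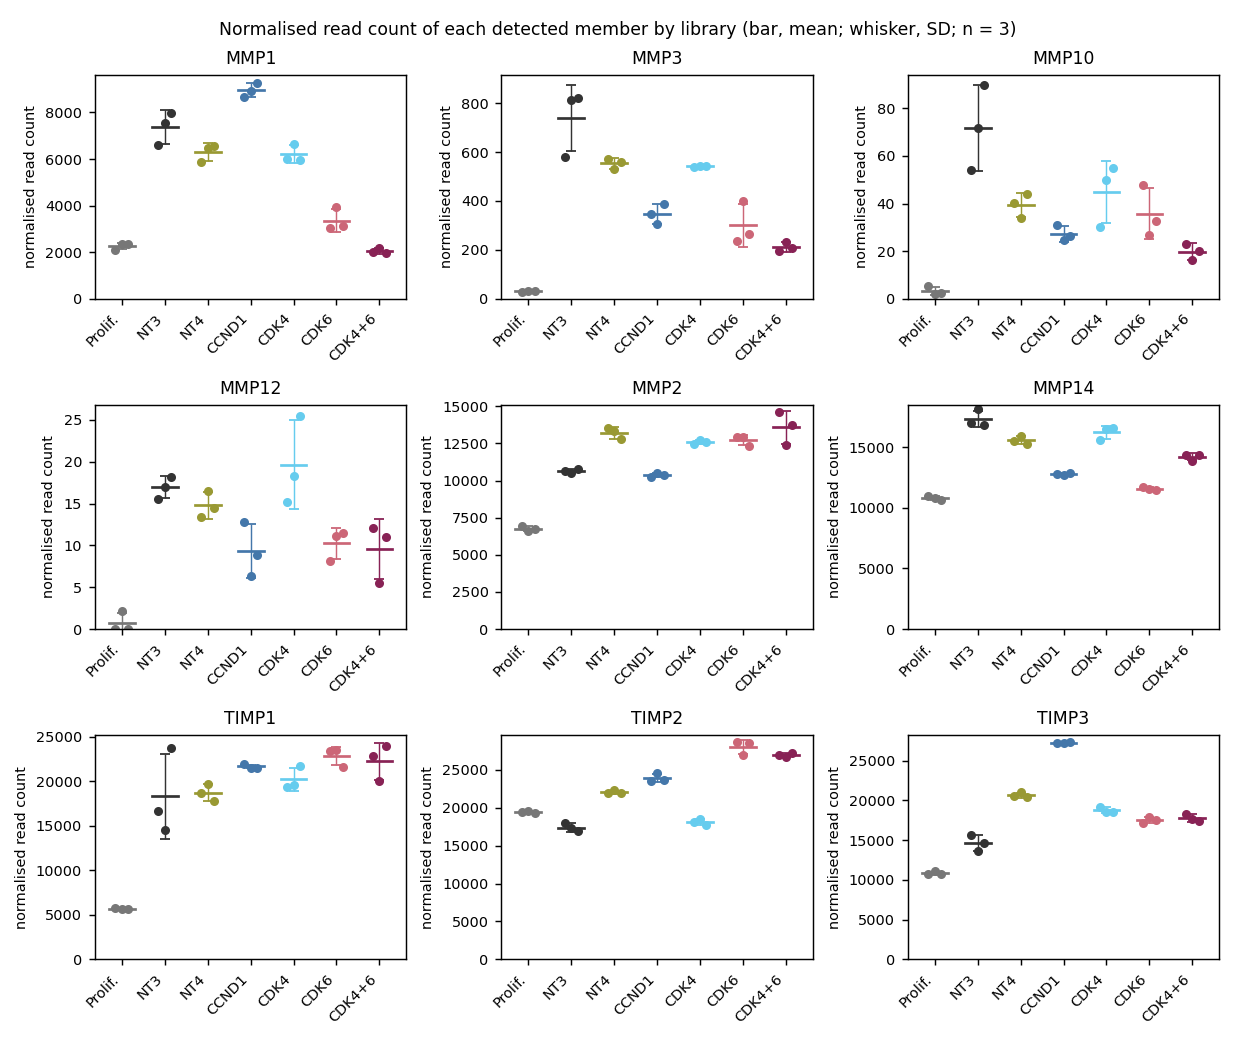
Normalised read count (linear axis from 0) of the 9 tested members in each library, by group; points are libraries, bars are means and whiskers are SD (n = 3). MMP1 was highest in CCND1 knockdown (8661 to 9261) and lowest in the dual knockdown (1955 to 2190), where it overlapped proliferating cells (2107 to 2337).

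MMP3, which cuts proteoglycans and fibronectin and activates other pro-MMPs, stood at 27.1, 30.9 and 32.8 in proliferating cells. With NT3 it was at 581, 814 and 820.4, and with NT4 at 569.8, 529 and 561. Every control library lay well above the proliferating ones. The log2 fold change was 4.35 (SE 0.13, limma adjusted p = 4.98e-17), a 20.4-fold difference on the log2(value + 1) scale.

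MMP10 and MMP12 had few reads. MMP10 stood at 5.24, 2.13 and 2.66 in proliferating cells, at 54.0, 71.7 and 89.8 with NT3 and at 40.1, 34.1 and 44.2 with NT4. In sum this was 11 reads against 344, a ratio of 16.3 after size factors (95% interval 9.0 to 33.0, exact, counting error only). MMP12 had 2 reads in 1 proliferating library and none in the other two, against 12 to 24 in each control library, 98 in all. Its ratio of 25.6 has a counting interval of 6.89 to 214. Fitted log2 fold changes were 3.69 for MMP10 (SE 0.25, limma adjusted p = 2.37e-11) and 3.52 for MMP12 (SE 0.37, limma adjusted p = 2.28e-08), but they depend on the pseudocount: with 10 in place of 1 they were 2.25 and 1.27, and with 0.1 MMP12 was at 5.82. Quantile normalisation gave 1.89 for MMP12. Both were called at each of these settings.

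MMP1 stood at 2107, 2337 and 2335 in proliferating cells, at 6595, 7543 and 7986 with NT3 and at 5856, 6485 and 6567 with NT4. TIMP1, a broad secreted inhibitor, stood at 5728, 5652 and 5662 in proliferating cells, at 16669, 14533 and 23720.2 with NT3 and at 18678, 19718 and 17845 with NT4. For both genes the groups were far apart, and NT3 replicate 3 was the highest TIMP1 value among the controls. The log2 fold changes were 1.59 for MMP1 (SE 0.07, limma adjusted p = 4.32e-14) and 1.69 for TIMP1 (SE 0.10, limma adjusted p = 1.10e-12).

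MMP2 rose from 6766 ± 167 (SD, n = 3) to 11928 ± 1416 (n = 6), a log2 fold change of 0.81 (SE 0.05, limma adjusted p = 9.67e-13). MMP14 rose from 10824 ± 153 to 16458 ± 1078, or by 0.60 (SE 0.04, limma adjusted p = 1.63e-11). TIMP3, an inhibitor that binds to the matrix, rose from 10836 ± 192 to 17637 ± 3364, or by 0.68 (SE 0.04, limma adjusted p = 9.59e-12); the value was 0.43 against NT3 alone. TIMP2 was the member not called, at 19429 ± 144 in proliferating cells and 19737 ± 2585 in the controls (0.01, 95% interval -0.07 to 0.10, limma adjusted p = 0.804). The direction differed between the controls: against proliferating cells TIMP2 was lower with NT3 alone (-0.16, limma adjusted p = 0.00539) and higher with NT4 alone (0.18, limma adjusted p = 0.00193). Median centring also called it higher, at 0.13.

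The controls were compared with each other because all 4 knockdowns are set against their mean. Of the 9 members, 5 differed between NT4 and NT3, where 27.8% of all genes did. The gelatinase MMP2 and the inhibitors TIMP2 and TIMP3 were higher with NT4, whereas MMP10 and MMP14 were lower. TIMP3 stood at 15624, 13615 and 14642 with NT3 and at 20539.9, 21002 and 20397 with NT4, without overlap (0.50, SE 0.05, limma adjusted p = 2.70e-07). TIMP2 stood at 17976, 17309 and 16918 with NT3 and at 22011, 22308 and 21901 with NT4 (0.34, SE 0.05, limma adjusted p = 1.34e-05). MMP2 stood at 10667, 10541 and 10759 with NT3 and at 13509, 13316 and 12776 with NT4 (0.31, SE 0.05, limma adjusted p = 0.000176). These 3 genes kept apart in all libraries of the 2 controls, and so did MMP1, MMP3, MMP10 and MMP14. The share of all genes that kept apart is not given here.

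The falls between the controls were less firm. MMP10 was lower by -0.83 with NT4 (SE 0.29, limma adjusted p = 0.0395), a call lost without any 1 of NT3 replicates 2 and 3 or NT4 replicates 1, 2 and 3 (adjusted p = 0.0589 to 0.162). MMP14 was lower by -0.15 (SE 0.05, limma adjusted p = 0.0175), and not called without NT3 replicate 2, NT4 replicate 1 or NT4 replicate 3 (adjusted p = 0.0542 to 0.0677). When NT3 and NT4 were fitted without the other groups, MMP10 had an adjusted p of 0.0615 and MMP14 one of 0.275. MMP10 was also not called with a pseudocount of 0.1 (adjusted p = 0.0565) or with no filter on low genes (adjusted p = 0.0636). MMP1 and MMP3 were at -0.22 (limma adjusted p = 0.0584) and -0.40 (limma adjusted p = 0.0581); both were called without NT3 replicate 1, at -0.30 and -0.56. DESeq2 called both too (adjusted p = 0.0430 and 0.0251), edgeR called MMP3 (adjusted p = 0.0289) and median centring called MMP1 (adjusted p = 0.0499). TIMP1 was at 0.06 (limma adjusted p = 0.700), with values of 0.27 (adjusted p = 0.00345) without NT3 replicate 3 and -0.09 without NT3 replicate 2.

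Each knockdown was then compared with the mean of NT3 and NT4, to ask what loss of cyclin D1 or its kinases did to the members in senescent cells. CCND1 knockdown changed 7 of 9 members (3 higher, 4 lower), where 31% of all genes passed (16.7% higher, 14.4% lower). CDK4 knockdown changed 0 of 9, where 16% passed; 2 had an unadjusted p under 0.05. CDK6 knockdown changed 5 of 9 (2 higher, 3 lower), where 41.9% passed (21.1% higher, 20.8% lower), and the dual knockdown 7 of 9 (3 higher, 4 lower), where 44% passed (22.5% higher, 21.5% lower). The members' median log2 fold changes were -0.19, -0.02, -0.50 and -0.21 in that order, beside medians over all genes between -0.0105 and 0.00311. These comparisons share the same 6 control libraries, and their values are given side by side for each member.

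**Figure D2:**
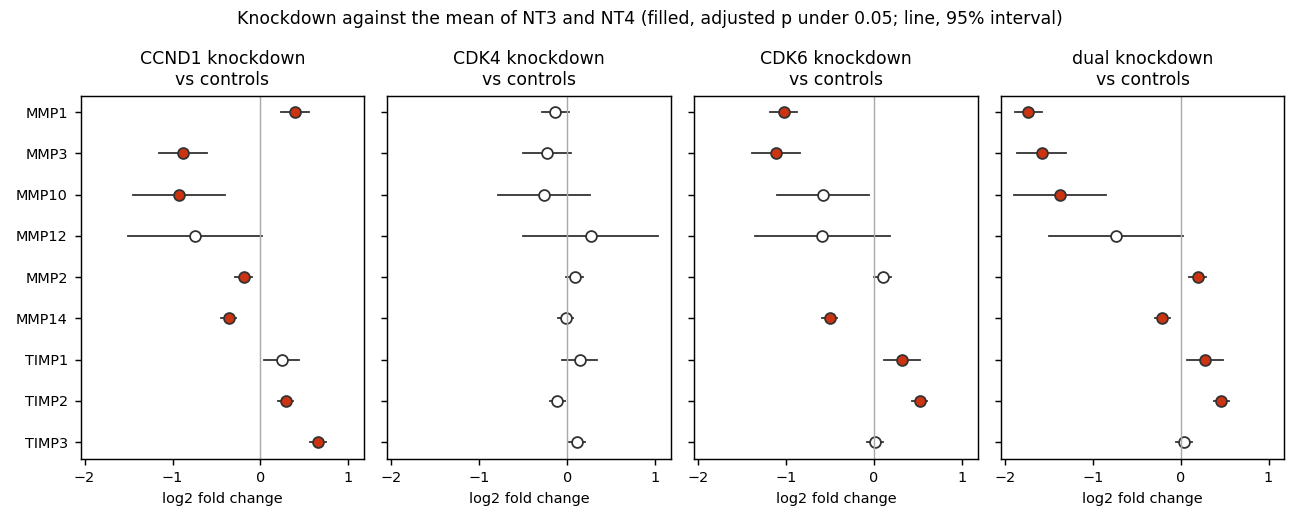
Log2 fold change of each member (horizontal axis) for each knockdown against the mean of NT3 and NT4; lines are 95% intervals and filled points have a limma adjusted p under 0.05. MMP1 was higher in CCND1 knockdown (0.40) and lower in CDK6 knockdown (-1.03) and in the dual knockdown (-1.73).

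MMP1, which makes the first cut in fibrillar collagen, was the member whose direction differed most clearly between knockdowns. It stood at 8661, 8926 and 9261 in CCND1 knockdown, at 6014, 6654 and 5952 in CDK4 knockdown, at 3049, 3921 and 3109 in CDK6 knockdown and at 1994, 2190.4 and 1955 in the dual knockdown. CCND1 knockdown lay above all control libraries, CDK4 knockdown lay among them, and CDK6 and dual knockdown lay below all of them. The log2 fold changes were 0.40 for CCND1 (SE 0.07, limma adjusted p = 0.000405), -0.13 for CDK4 (95% interval -0.29 to 0.02, limma adjusted p = 0.250), -1.03 for CDK6 (SE 0.07, limma adjusted p = 8.26e-10) and -1.73 for the dual knockdown (SE 0.07, limma adjusted p = 1.70e-13). Against NT3 alone, CDK4 knockdown was at -0.25 (adjusted p = 0.0405).

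In the order of mean MMP1 level, CCND1 knockdown came first, then NT3, NT4, CDK4 knockdown, CDK6 knockdown, proliferating cells and the dual knockdown. The libraries of NT4 and CDK4 knockdown overlapped, as did those of proliferating cells and the dual knockdown; the other neighbours did not. CDK6 knockdown was lower than CDK4 knockdown by -0.89 (SE 0.09, limma adjusted p = 6.12e-08), and the dual knockdown was lower than CDK6 knockdown by -0.71 (SE 0.09, limma adjusted p = 7.38e-06).

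MMP3 did not share the rise of MMP1 in CCND1 knockdown. It stood at 348, 304 and 386 there, at 539, 542 and 543 in CDK4 knockdown, at 237, 402 and 263 in CDK6 knockdown and at 195, 233 and 208 in the dual knockdown. CCND1, CDK6 and dual knockdown libraries were all below the lowest control library (529), and all were above the proliferating libraries. The log2 fold changes were -0.88 for CCND1 (SE 0.13, limma adjusted p = 3.64e-05), -0.23 for CDK4 (95% interval -0.51 to 0.05, limma adjusted p = 0.269), -1.11 for CDK6 (SE 0.13, limma adjusted p = 9.05e-07) and -1.58 for the dual knockdown (SE 0.13, limma adjusted p = 3.99e-09). Against NT3 alone, CDK4 knockdown was at -0.43 (adjusted p = 0.0442).

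MMP10, the second stromelysin, had 15 to 56 reads per library in the knockdowns. It stood at 30.8, 24.5 and 26.5 in CCND1 knockdown, at 30.3, 49.7 and 55.0 in CDK4 knockdown, at 47.8, 27.0 and 32.6 in CDK6 knockdown and at 23.2, 16.4 and 20.0 in the dual knockdown. CCND1 and dual knockdown were below all control libraries, whose lowest was 34.1. MMP10 fell in CCND1 knockdown (-0.93, SE 0.25, limma adjusted p = 0.00810) and in the dual knockdown (-1.37, SE 0.25, limma adjusted p = 0.000150). Against NT4 alone the CCND1 value was -0.51 and was not called (adjusted p = 0.239). In CDK4 knockdown MMP10 was at -0.26 (95% interval -0.79 to 0.26, limma adjusted p = 0.541).

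For CDK6 knockdown, MMP10 was at -0.58 (95% interval -1.11 to -0.06, limma adjusted p = 0.0704), which depended on the controls: it was -0.99 against NT3 alone (adjusted p = 0.00838) and -0.17 against NT4 alone (adjusted p = 0.711). It was called without NT3 replicate 1 (-0.67, adjusted p = 0.0429) or without CDK6 knockdown replicate 1 (-0.80, adjusted p = 0.0333), with a pseudocount of 10 (-0.48, adjusted p = 0.0309) and by DESeq2 (-0.57, adjusted p = 0.0498). MMP12, which cuts elastin, had 5 to 26 reads per library in the knockdowns and passed in none. Its log2 fold changes were -0.75 for CCND1 (limma adjusted p = 0.132), 0.27 for CDK4 (0.687), -0.59 for CDK6 (0.212) and -0.74 for the dual knockdown (0.111), with intervals that reach 0.02 for CCND1 and 0.03 for the dual knockdown. With a pseudocount of 10 it was called in CCND1 and dual knockdown, at -0.43 and -0.42.

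MMP14 and MMP2, which act together at the cell surface, differed by less than the stromelysins. MMP14 stood at 12825, 12712 and 12843 in CCND1 knockdown, at 15614, 16491 and 16620.1 in CDK4 knockdown, at 11706, 11598 and 11455 in CDK6 knockdown and at 14401, 13874 and 14377 in the dual knockdown. The lowest control library was at 15295, above every CCND1, CDK6 and dual knockdown library. MMP14 fell in CCND1 knockdown (-0.36, SE 0.04, limma adjusted p = 9.36e-07), in CDK6 knockdown (-0.50, SE 0.04, limma adjusted p = 3.07e-09) and in the dual knockdown (-0.21, SE 0.04, limma adjusted p = 0.000250). The dual value was -0.13 against NT4 alone and -0.39 after quantile normalisation, called at both. CDK4 knockdown was at -0.02 (95% interval -0.10 to 0.07, limma adjusted p = 0.828); it was 0.06 against NT4 alone and 0.01 without CDK4 knockdown replicate 1.

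The dual knockdown of MMP14 was higher than CDK6 knockdown by 0.30 (SE 0.05, limma adjusted p = 0.000142), with no overlap. CDK6 knockdown was lower than CDK4 knockdown by -0.49 (SE 0.05, limma adjusted p = 5.37e-08). MMP2 did not share this order. It stood at 10256, 10484 and 10404 in CCND1 knockdown, at 12470.0, 12711 and 12581 in CDK4 knockdown, at 12901, 12936 and 12328 in CDK6 knockdown and at 14620.0, 12417 and 13737 in the dual knockdown. CCND1 knockdown was just under the lowest NT3 library (10541), and the dual knockdown overlapped NT4.

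MMP2 was lower in CCND1 knockdown (-0.19, SE 0.05, limma adjusted p = 0.00314) and higher in the dual knockdown (0.19, SE 0.05, limma adjusted p = 0.00174), both calls resting on 1 control. Against NT3 alone the CCND1 value was -0.04 (adjusted p = 0.607), and against NT4 alone -0.35 (adjusted p = 7.46e-05). The dual value was 0.35 against NT3 alone (adjusted p = 1.65e-05) and 0.04 against NT4 alone (adjusted p = 0.596). Quantile normalisation gave -0.29 for CCND1, still called, and 0.03 for the dual knockdown, not called. MMP2 was at 0.09 in CDK4 knockdown (limma adjusted p = 0.227) and 0.10 in CDK6 knockdown (limma adjusted p = 0.0832). Against NT3 alone these were called at 0.24 and 0.26, and against NT4 alone they were -0.07 and -0.05. Without NT3 replicate 3 the CDK6 value was 0.10 with an adjusted p of 0.0365, median centring called it at 0.11 and DESeq2 at 0.10.

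Among the inhibitors, TIMP2 rose in 3 knockdowns. It stood at 23582, 24549 and 23669 in CCND1 knockdown, at 18075, 18546 and 17745 in CDK4 knockdown, at 28729, 27020.0 and 28522 in CDK6 knockdown and at 27042, 26708 and 27232 in the dual knockdown. All libraries of CCND1, CDK6 and dual knockdown were above the highest control library (22308). The log2 fold changes were 0.29 for CCND1 (SE 0.04, limma adjusted p = 1.78e-05), 0.52 for CDK6 (SE 0.04, limma adjusted p = 2.53e-09) and 0.46 for the dual knockdown (SE 0.04, limma adjusted p = 8.83e-09). Against NT4 alone they were 0.12 (adjusted p = 0.0924), 0.35 and 0.29, so that the CCND1 call rested on NT3, where it was 0.46. Quantile normalisation gave 0.13 for CCND1 and 0.19 for the dual knockdown, both called.

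TIMP2 in CDK4 knockdown was at -0.11 (95% interval -0.20 to -0.03, limma adjusted p = 0.0660) and turned with the control, to 0.06 against NT3 alone and -0.28 against NT4 alone (adjusted p = 0.000282). It was called at -0.12 without NT3 replicate 3 (adjusted p = 0.00798), at -0.15 after quantile normalisation and at -0.11 by DESeq2 or with only genes of a mean of at least 100. CDK6 knockdown was higher than CDK4 knockdown by 0.63 (SE 0.05, limma adjusted p = 1.45e-09), and the dual knockdown differed from CDK6 knockdown by -0.06 (95% interval -0.16 to 0.04, limma adjusted p = 0.479). After quantile normalisation that difference was -0.18 and was called (adjusted p = 0.0280).

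TIMP3 was raised in CCND1 knockdown, where it stood at 27206, 27170.3 and 27408, above all other libraries of the series. It stood at 19165, 18496 and 18557 in CDK4 knockdown, at 17186, 17886 and 17474 in CDK6 knockdown and at 18284, 17657 and 17426 in the dual knockdown, all between NT3 and NT4. The CCND1 log2 fold change was 0.65 (SE 0.04, limma adjusted p = 1.34e-09), and 0.40 against NT4 alone (adjusted p = 8.92e-06). The other values were 0.11 for CDK4 (limma adjusted p = 0.0999), 0.01 for CDK6 (limma adjusted p = 0.847) and 0.03 for the dual knockdown (limma adjusted p = 0.555). Their direction was set by the control: 0.36, 0.26 and 0.28 against NT3 alone and -0.14, -0.24 and -0.22 against NT4 alone. Quantile normalisation turned the CDK6 and dual values to -0.13 and -0.15. The CDK4 value was called without NT3 replicate 3 (0.11, adjusted p = 0.0353) or without NT3 replicate 1 (0.13, adjusted p = 0.0376), and by DESeq2.

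The TIMP1 calls moved with 1 control library. It stood at 21928, 21565 and 21555 in CCND1 knockdown, at 19327, 19643 and 21757 in CDK4 knockdown, at 23397, 23509 and 21653 in CDK6 knockdown and at 22814, 19995 and 23962 in the dual knockdown. CCND1, CDK6 and dual knockdown overlapped the controls only through NT3 replicate 3, at 23720.2, and CDK4 knockdown also overlapped NT4 replicate 2, at 19718. TIMP1 was higher in CDK6 knockdown (0.32, SE 0.10, limma adjusted p = 0.0114) and in the dual knockdown (0.28, SE 0.10, limma adjusted p = 0.0244), and was at 0.24 in CCND1 knockdown (limma adjusted p = 0.0604) and 0.14 in CDK4 knockdown (limma adjusted p = 0.361). Without NT3 replicate 3 all 4 were called: 0.42 for CDK6 (adjusted p = 3.80e-07), 0.38 for the dual knockdown (adjusted p = 1.51e-06), 0.34 for CCND1 (adjusted p = 1.30e-05) and 0.24 for CDK4 (adjusted p = 0.00132).

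Other settings ended the TIMP1 calls of CDK6 and dual knockdown: quantile normalisation (0.18 and 0.06), NT4 alone as the control (0.29 and 0.24) and a fit without the uncompared groups (adjusted p = 0.0758 and 0.126). Without dual knockdown replicate 1 or 3 the dual call was lost too (adjusted p = 0.0866 and 0.132). Median centring called the CCND1 value, at 0.26.

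**Figure D3:**
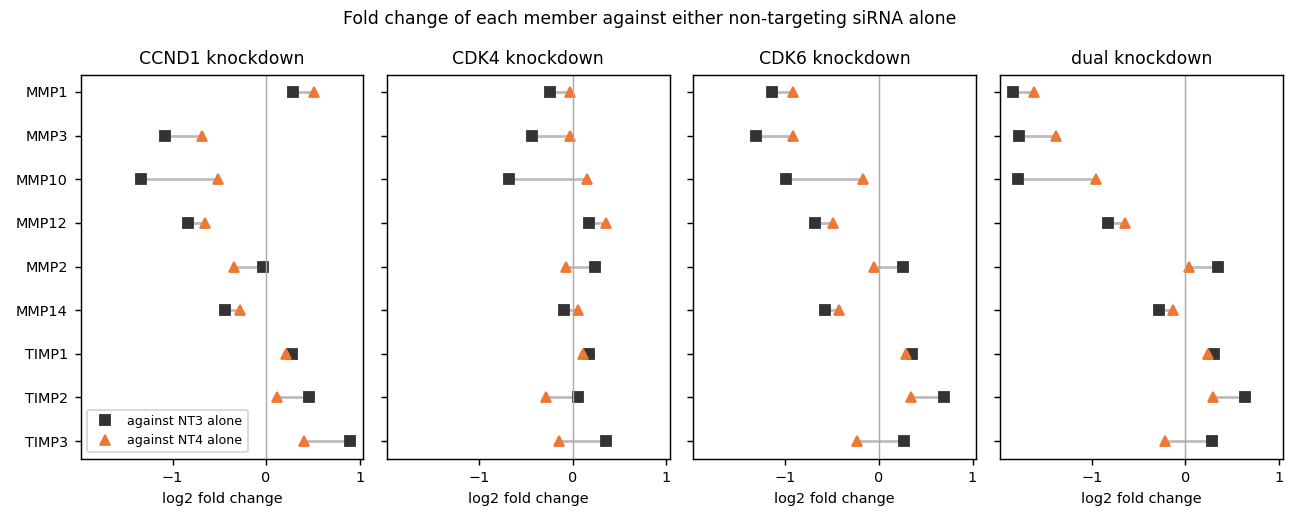
Log2 fold change of each member (horizontal axis) against NT3 alone (squares) and NT4 alone (triangles), by knockdown. For MMP1 in CDK6 knockdown both lie below 0 (-1.14 and -0.92), whereas TIMP3 in the same group lies at 0.26 with NT3 and -0.24 with NT4.

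The count of members called against 1 control was 4 for CDK4 knockdown with NT3 alone and 1 with NT4 alone, against 0 with both. Of all genes, 25.6% were called with NT3 alone and 11.6% with NT4 alone, against 16% with both. It was 3 for CDK4 knockdown without NT3 replicate 3, where the share of all genes is not given. On the recovered reads edgeR and DESeq2 called 0 and 2 members there. Of the 11579 genes tested, edgeR called 1934, DESeq2 2100 and limma 1854. For CDK6 knockdown 8 members were called with NT3 alone, against 5 with both, where 46.3% and 41.9% of all genes were called. Calls for MMP1, MMP3, MMP14 and TIMP2 in CDK6 and dual knockdown, and for MMP1, MMP3, MMP14 and TIMP3 in CCND1 knockdown, held with either control alone, as did that for MMP10 in the dual knockdown.

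Direct comparisons between the kinases followed. CDK6 knockdown differed from CDK4 knockdown in 4 of 9 members, where 34.8% of all genes differed: MMP1, MMP3 and MMP14 were lower and TIMP2 was higher. For MMP3 the difference was -0.88 (SE 0.15, limma adjusted p = 0.000108). Further values not called there passed in 1 other setting each: MMP12 with a pseudocount of 10 (-0.54), TIMP1 in a fit of those groups alone (0.18) and TIMP3 after quantile normalisation (-0.22). The dual knockdown differed from CDK6 knockdown in 3 of 9, where 13% of all genes differed: MMP1 and MMP3 were lower and MMP14 was higher. The MMP3 difference of -0.47 (SE 0.15, limma adjusted p = 0.0486) was not firm. It was lost without any 1 of CDK6 knockdown replicates 2 and 3 or the 3 dual knockdown libraries, and was -0.24 (adjusted p = 0.300) without CDK6 knockdown replicate 2. It was also lost with no filter, median centring or quantile normalisation (adjusted p = 0.0516 to 0.0819). MMP10 was at -0.79 there (95% interval -1.40 to -0.19, limma adjusted p = 0.0783).

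The dual knockdown was also set against the single CDK4 and CDK6 effects added up on the log2 scale, a test of whether the 2 knockdowns combined additively. Depletion of CDK6 was not equal: 20.6% of its RNA was left in the dual knockdown and 16.4% in CDK6 knockdown. The part of this difference in the departures was not tested. It departed from the sum for 2 of 9 members, where 6.35% of all genes did. MMP1 fell further than the sum: the sum was -1.16, the dual knockdown -1.73 and the departure -0.57 (SE 0.11, limma adjusted p = 0.00307). MMP14 fell less than the sum: the sum was -0.52, the dual knockdown -0.21 and the departure 0.31 (SE 0.06, limma adjusted p = 0.00277). Both departures were called at all 27 alternative settings, from -0.68 to -0.46 for MMP1 and from 0.24 to 0.39 for MMP14.

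**Figure D4:**
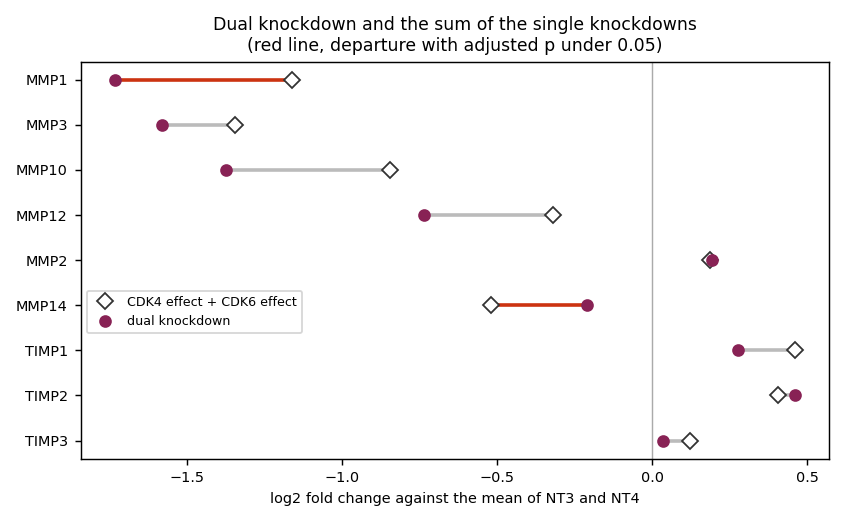
Log2 fold change against the mean of NT3 and NT4 (horizontal axis) for the dual knockdown (circles) and for the single CDK4 and CDK6 effects added up (diamonds), by member; red lines mark a departure with a limma adjusted p under 0.05. MMP1 in the dual knockdown lies below the sum (-1.73 and -1.16), and MMP14 lies above it (-0.21 and -0.52).

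No departure was called for the other 7 tested members. MMP10 (-0.53, 95% interval -1.33 to 0.27) and MMP12 (-0.42, 95% interval -1.59 to 0.75) had wide intervals at their low counts, so departures as large as that of MMP1 were not detectable. MMP3 was at -0.24, and its 95% interval of -0.66 to 0.19 also includes the MMP1 departure of -0.57. TIMP2 was at 0.06 (95% interval -0.07 to 0.19) and MMP2 at 0.01 (-0.14 to 0.15). TIMP1 was at -0.18 (limma adjusted p = 0.505) and was called without NT3 replicate 3 (-0.28, adjusted p = 0.0191). TIMP3 was at -0.09 (limma adjusted p = 0.483), with -0.34 against NT3 alone (adjusted p = 0.00289) and 0.16 against NT4 alone.

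Because MMP1 lay above the controls in 1 group and below them in another, CCND1 knockdown was compared directly with CDK6 knockdown; this comparison was added after the values were seen. It differed in 5 of 9 members, where 12.2% of all genes differed. MMP1 was 1.42 higher in CCND1 knockdown (SE 0.09, limma adjusted p = 3.19e-10), a 2.68-fold difference, and TIMP3 was 0.64 higher (SE 0.05, limma adjusted p = 2.06e-08). MMP2 was lower by -0.29 (SE 0.05, limma adjusted p = 0.000702) and TIMP2 by -0.23 (SE 0.05, limma adjusted p = 0.00222). MMP14 was 0.14 higher (SE 0.05, limma adjusted p = 0.0484), a call lost when any 1 of the 6 libraries was left out (adjusted p = 0.0957 to 0.146), with no filter (adjusted p = 0.0742) and after quantile normalisation (adjusted p = 0.0825). MMP3 was at 0.23 (95% interval -0.09 to 0.55, limma adjusted p = 0.386) and was called without CDK6 knockdown replicate 2 (0.46, adjusted p = 0.0353).

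To compare levels between genes, normalised reads were divided by the length of the canonical transcript in kb. Per kb, TIMP1 was the most abundant member in every group, with a mean of 7387 in proliferating cells and 24092 in the controls. In the controls TIMP2 followed at 5405, then MMP14 at 4447, TIMP3 at 3837, MMP1 at 3469.7, MMP2 at 3394, MMP3 at 354, MMP10 at 31.6 and MMP12 at 8.70. In the dual knockdown MMP1 was at 1038 per kb, below MMP2 (3868), MMP14 (3842) and TIMP3 (3870). The library ranges of MMP1 and each of these 3 genes did not overlap there. With NT4 MMP1 (2971 to 3332) was also below MMP2, MMP14 and TIMP3 without overlap. With NT3 MMP1 (3346 to 4052) was above MMP2 and below MMP14 without overlap, and it overlapped TIMP3 (2962 to 3399).

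The ratio of MMP1 to TIMP1 per kb overlapped between proliferating and control cells, and its lowest values were in CDK6 and dual knockdown. It was 0.143 to 0.161 in proliferating cells, 0.131 to 0.202 with NT3, 0.122 to 0.144 with NT4, 0.154 to 0.168 in CCND1 knockdown and 0.107 to 0.132 in CDK4 knockdown. It was 0.0509 to 0.0651 in CDK6 knockdown and 0.0318 to 0.0427 in the dual knockdown, below every other library. MMP14 to TIMP2, the pair that meets at the cell surface, had a mean of 0.550 in proliferating cells, 0.984 with NT3, 0.696 with NT4, 0.528 in CCND1 knockdown, 0.885 in CDK4 knockdown, 0.407 in CDK6 knockdown and 0.520 in the dual knockdown. CDK6 knockdown was the lowest, at 0.396 to 0.424, and NT3 the highest, at 0.933 to 1.03. These ratios describe RNA and were not tested.

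**Figure D5:**
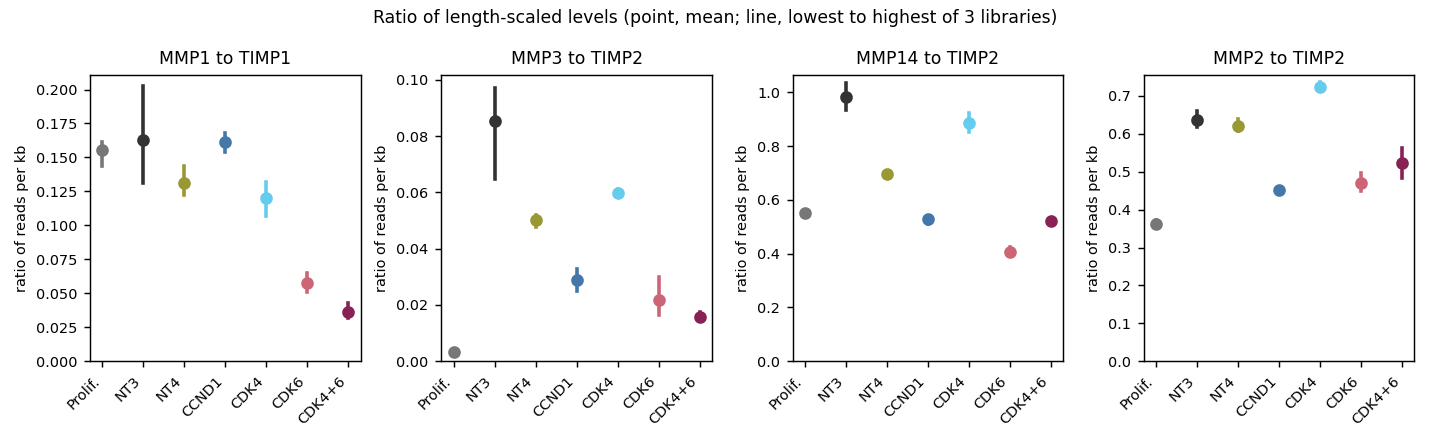
Ratio of reads per kb (vertical axis, linear from 0) between a metalloproteinase and an inhibitor, by group; points are means and lines run from the lowest to the highest of 3 libraries. MMP1 to TIMP1 was 0.0318 to 0.0427 in the dual knockdown and 0.122 to 0.202 over the controls.

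The other genes of the pathway were taken from lists, described here by counts of genes called by limma. Of all 11579 genes tested, 32.6% were higher and 36.1% lower in the senescent controls than in proliferating cells. Against the controls, 16.7% were higher and 14.4% lower in CCND1 knockdown, 8.46% and 7.55% in CDK4 knockdown, 21.1% and 20.8% in CDK6 knockdown, and 22.5% and 21.5% in the dual knockdown. Of 17 further MMP and TIMP genes, 7 had enough reads to be tested. In the senescent controls 4 were higher and 3 lower than in proliferating cells: MMP15, a membrane-type enzyme, rose by 2.59 (SE 0.12, limma adjusted p = 5.29e-14), and MMP17 fell by 0.72 (SE 0.15, limma adjusted p = 0.000228). CDK4 knockdown changed 0 of the 7, CCND1 knockdown 2 (both lower), CDK6 knockdown 4 (2 higher, 2 lower) and the dual knockdown 1 (higher). In CDK6 knockdown TIMP4, the fourth inhibitor, rose by 0.89 (SE 0.24, limma adjusted p = 0.00516) and MMP15 fell by 0.57 (SE 0.12, limma adjusted p = 0.000856).

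Genes that activate pro-MMPs or restrain MMPs numbered 19, of which 17 were tested. In the senescent controls 11 were higher and 2 lower. PLAU (urokinase, which makes plasmin, an activator of pro-MMPs) rose by 1.76 (SE 0.08, limma adjusted p = 4.07e-14) and SERPINB2, an inhibitor of urokinase, by 4.69 (SE 0.10, limma adjusted p = 1.46e-19). CDK6 knockdown had 6 higher and 6 lower: PLAU fell by 1.42 (SE 0.08, limma adjusted p = 2.58e-11) and SERPINB2 fell by 2.10 (SE 0.10, limma adjusted p = 1.51e-12). The dual knockdown had 5 higher and 8 lower, with PLAU at -0.97 and SERPINB2 at -2.30 (limma adjusted p = 4.48e-09 and 1.70e-13).

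CCND1 knockdown had 5 higher and 4 lower of the 17. RECK, a membrane-anchored MMP inhibitor, rose by 0.96 (SE 0.08, limma adjusted p = 9.49e-09), and PLAU fell by 0.56 (SE 0.08, limma adjusted p = 2.51e-05). CDK4 knockdown had 0 higher and 7 lower, among them BSG, the membrane glycoprotein also known as an MMP inducer (-0.84, SE 0.07, limma adjusted p = 1.28e-08). The list's median log2 fold change was 0.08 in CCND1, -0.20 in CDK4, 0.04 in CDK6 and -0.225 in the dual knockdown.

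Of 18 inducers of MMP transcription (AP-1, ETS and NF-κB factors and inflammatory cytokines), 16 were tested. In the senescent controls 10 were higher and 3 lower, with the cytokine genes IL1A at 5.63 (SE 0.34, limma adjusted p = 3.55e-12) and IL1B at 4.77 (SE 0.23, limma adjusted p = 6.30e-14). Against the controls, 9 were lower in CCND1 knockdown, 1 in CDK4 knockdown, 13 in CDK6 knockdown and 11 in the dual knockdown, and 0 were higher in any of the 4. Of all genes, 14.4%, 7.55%, 20.8% and 21.5% were lower in that order. The list's medians were -0.36, -0.02, -0.55 and -0.535. IL1B fell by 3.38 in CDK6 knockdown (SE 0.23, limma adjusted p = 3.15e-10) and fell by 3.97 in the dual knockdown (SE 0.23, limma adjusted p = 1.25e-11). The AP-1 subunit genes FOSB and FOS fell in CCND1 knockdown by 1.10 and 1.06 (limma adjusted p = 0.00356 and 0.000821), at means of 29.7 and 29.3. IL1B was itself lower with NT4 than with NT3, by -1.47 (SE 0.26, limma adjusted p = 0.000289).

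All 22 matrix genes on the substrate list were tested. In the senescent controls 5 were higher and 8 lower. Tenascin C, TNC, a matrix glycoprotein, was among the lower genes (log2 difference -1.51, SE 0.11, limma adjusted p = 3.09e-11). TNC was itself higher with NT4 than with NT3, by 1.16 (SE 0.12, limma adjusted p = 3.88e-07). Between the controls, 10 of the 22 were higher and 3 lower with NT4, where 27.8% of all genes differed in either direction. Against the controls 12 were higher and 1 lower in CCND1 knockdown, 3 and 2 in CDK4 knockdown, 11 and 2 in CDK6 knockdown, and 15 and 1 in the dual knockdown. Of all genes, 16.7%, 8.46%, 21.1% and 22.5% were higher in that order, and 16% passed in either direction in CDK4 knockdown. ELN, the elastin gene, was higher in CCND1 (0.68), CDK6 (0.74) and dual knockdown (0.82), with limma adjusted p = 0.00438, 0.00147 and 0.000533. The list's medians were 0.23, 0.15, 0.21 and 0.42, and 5 of its genes are also fibroblast markers, whose summed level was highest in the dual knockdown.

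Within the 18 irradiated libraries, members were compared by Pearson's r of their log2 values, as a description in which libraries of 1 group share their treatment. MMP3 and TIMP2 ran opposite to each other (r = -0.889), as did MMP14 and TIMP2 (-0.858), while MMP3 ran with MMP10 (0.781) and MMP1 (0.749). MMP1 and MMP2 were at -0.705, and MMP2 and MMP14 at -0.0531. Of genes outside the members, those most like MMP1 were SERPINB2 (0.943), VEPH1 (0.942) and NT5E (0.934). Those most like MMP3 were DLL4 (0.967), SMOC1 (0.966) and PHLDA1 (0.964). Those most like MMP14 were PSMD3 (0.949), SQSTM1 (0.948) and PLAUR (0.939), and those most like TIMP2 were LHFPL6 (0.981), CAMK2D (0.970) and GALNT16 (0.962).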

How the data were processed

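The authors deposited an expression signal for each gene in each library, which the file headers call normalised counts. The submitters' processing notes name Trimmomatic 0.38.1, HISAT2 2.2.1, featureCounts 2.0.3, DESeq2 2.11.40.8, FastQC 0.74, MultiQC and the build hg38 (GRCh38), without roles. In every library 100% of values were whole multiples of 1 step (within 0.001 reads), so each signal that the authors deposited is a read count divided by a size factor.

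The 11579 genes that reached a value of 10 in 3 or more libraries were fitted as log2(value + 1) by limma 3.58.1 (R 4.3.3), which estimated group means and a trended empirical Bayes variance from all 7 groups. Tests were two-sided, with Benjamini-Hochberg adjustment over all genes tested and a threshold of 0.05. Count models (edgeR 4.0.16 and DESeq2 1.42.0) on the recovered reads were alternatives; for CDK6 knockdown edgeR called 4922 genes and limma 4853. The other alternatives were the pseudocount, the filter, median centring, quantile normalisation, 1 control alone, the compared groups alone and leaving out each library. The code was tested on simulated data.

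All 10 members are named. From every other list, at most 3 called genes per comparison could be named, those with the largest absolute log2 fold change among genes whose libraries did not overlap, and for at most 4 members the 3 genes of most similar pattern. One gene that this rule picks is not reported here. The members and lists were chosen with earlier results of these data known. Replicate numbers follow the column order and only name libraries. Coordinates and transcript lengths come from GENCODE on GRCh38.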

Additional observations from a re-analysis of the deposited data

Results flagged for a closer look

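For MMP1 the dual knockdown departed from the added CDK4 and CDK6 effects by -0.57 on the log2 scale, a difference found by a test of the departure itself (limma adjusted p = 0.00307). MMP1 was at 6014, 6654 and 5952 in CDK4 knockdown, at 3049, 3921 and 3109 in CDK6 knockdown and at 1994, 2190.4 and 1955 in the dual knockdown, which lay below all libraries of the single knockdowns.

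For MMP14 the departure was 0.31 in the opposite direction (limma adjusted p = 0.00277). Its dual knockdown libraries (13874 to 14401) lay between those of CDK6 knockdown (11455 to 11706) and CDK4 knockdown (15614 to 16620.1). Of all genes tested, 6.35% departed from the sum. CDK6 itself stood at 930 to 998 in the dual knockdown and at 727 to 834 in CDK6 knockdown, and the part of this in either departure was not tested.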

How the results depend on the processing

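Of 1734 values of single members under other settings, 1612 kept their direction and their side of the threshold, 48 passed it where they had not, 42 no longer passed and 32 changed sign; the causes were not tested. No value that changed sign had been called, and 1 control alone or quantile normalisation accounted for most. With NT4 alone, CDK4 knockdown gave -0.068 for MMP2, 0.15 for MMP10, 0.060 for MMP14 and -0.14 for TIMP3, CDK6 knockdown -0.053 for MMP2 and -0.24 for TIMP3, the dual knockdown -0.22 for TIMP3, and the departure from the sum 0.16 for TIMP3. With NT3 alone, TIMP2 was at -0.16 against proliferating cells and 0.059 in CDK4 knockdown, and the departures were -0.15 for MMP2 and -0.12 for TIMP2. Quantile normalisation gave TIMP3 -0.13 in CDK6 and -0.15 in dual knockdown, MMP2 -0.090 in CDK6 against CDK4 knockdown, MMP12 0.15 and TIMP3 -0.020 in dual against CDK6 knockdown, and departures of -0.059 for MMP2 and -0.031 for TIMP2; DESeq2 gave a departure of -0.00191 for MMP2. With 1 library left out, values that changed sign ran from -0.086 to 0.27 (TIMP1, NT4 against NT3), -0.034 to 0.011 (MMP14, CDK4 knockdown), -0.013 to 0.037 (TIMP3, CDK6 knockdown), -0.34 to 0.17 (MMP12) and -0.097 to 0.034 (TIMP1) in dual against CDK6 knockdown, -0.048 to 0.070 (MMP2, departure) and -0.39 to 0.059 (MMP12, CCND1 against CDK6 knockdown). The count of members called between the controls was 3 in a fit of those groups alone and 3 to 7 with 1 library left out, against 5. For CDK4 knockdown it was 1 with genes of a mean of at least 100, 1 after quantile normalisation, 2 by DESeq2, 4 with NT3 alone, 1 with NT4 alone and 0 to 3 with 1 library left out, against 0. For CDK6 knockdown it was 8 with NT3 alone, against 5. MMP10 and MMP12, with means under 100, gave no value under that filter. Table columns carry no replicate number; the library numbers in them run in 3 rounds through the irradiated groups, a hint from the headers that was tried after the data were seen. Deviations of libraries of the same round correlated by 0.0227 on average, 1 of 45 pairs over 0.1. Those of different rounds correlated by -0.0114 on average, 2 of 90 pairs over 0.1. An average over all tested genes cannot exclude that libraries of a round were paired. With the round as a replicate block, MMP1 (-0.22, adjusted p = 0.0431) and MMP3 (-0.40, adjusted p = 0.0340) were called between the controls, MMP10 in CDK6 knockdown (adjusted p = 0.0332) and in dual against CDK6 knockdown (adjusted p = 0.0397), and MMP14 was not in CCND1 against CDK6 knockdown (adjusted p = 0.0862); members called were 7, 7, 0, 6, 7, 4, 4, 2 and 4 in NT4 against NT3, CCND1, CDK4, CDK6 and dual knockdown, CDK6 against CDK4, dual against CDK6, the departure and CCND1 against CDK6. The share of all genes called is not given for the block, the left-out libraries, the fit of the compared groups alone, the other filter or quantile normalisation. Counts of members at those settings therefore describe the members only. Depth limits MMP10, MMP11 and MMP12, which had 737, 1 and 246 reads over all 21 libraries.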

Other observations

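Among the endothelial markers, TEK, the angiopoietin receptor gene, was the most abundant in each group. It rose in CDK6 knockdown by 0.69 against the controls (SE 0.08, limma adjusted p = 1.30e-06) and was lower with NT4 than with NT3 by -0.54 (SE 0.10, limma adjusted p = 0.000309). Of the 5 endothelial markers tested, 0 were higher and 1 lower in CCND1 knockdown, and 0 were called in CDK4 knockdown. In each of CDK6 and dual knockdown 1 was higher and 1 lower. Of all genes, 31%, 16%, 41.9% and 44% were called in CCND1, CDK4, CDK6 and dual knockdown. The list's medians were -0.34, -0.002, -0.55 and -0.65 in the order CCND1, CDK4, CDK6 and dual knockdown, so the rise of TEK was not shared by the list.

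Of the 5 epithelial markers tested, 1 was higher and 1 lower in CCND1 knockdown, and 0 were called in CDK4 knockdown. In CDK6 knockdown 1 was higher and 1 lower, and in the dual knockdown 2 were higher and 1 lower. Of all genes, 31%, 16%, 41.9% and 44% were called in that order. The list's medians were -0.05, -0.03, -0.02 and 0.13. The keratin gene KRT19 was higher in CCND1 knockdown (0.83, SE 0.10, limma adjusted p = 2.55e-06), in CDK6 knockdown (0.97, SE 0.10, limma adjusted p = 1.42e-07) and in the dual knockdown (0.90, SE 0.10, limma adjusted p = 2.60e-07). KRT18 fell in CDK6 knockdown (-0.55, SE 0.08, limma adjusted p = 9.07e-06). It was itself lower with NT4 than with NT3, by -0.68 (SE 0.09, limma adjusted p = 8.13e-06). Of the 10 fibroblast markers, 5 were higher and 1 lower in CDK6 knockdown, where 21.1% and 20.8% of all genes were. THY1, a fibroblast surface protein, rose in CDK6 knockdown by 0.73 (SE 0.05, limma adjusted p = 7.76e-10).

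Of the 10 macrophage and leukocyte markers, 3 had enough reads to be tested. All 3 were lower in both CCND1 and dual knockdown, where 14.4% and 21.5% of all genes were lower. In CDK6 knockdown 0 were called, where 41.9% of all genes passed. In CDK4 knockdown 1 was higher, where 8.46% of all genes were. Medians were -1.01 in CCND1, -0.91 in dual, -0.54 in CDK6 and -0.21 in CDK4 knockdown. So few genes describe themselves only and not a cell type. The receptor gene CSF1R fell by 1.16 in CCND1 knockdown and by 1.56 in the dual knockdown (limma adjusted p = 0.00722 and 0.000326), from a control mean of 18.1. Its means in these knockdowns were 6.96 and 5.00, under the filter value of 10. CD14 fell by 1.01 and 0.91 (limma adjusted p = 0.0227 and 0.0278), from 27.4. CD68 was higher in CDK4 knockdown by 0.48 (SE 0.06, limma adjusted p = 3.91e-06), and in the dual knockdown it departed from the sum of the single effects by -0.67 (SE 0.09, limma adjusted p = 3.17e-05). It was itself higher with NT4 than with NT3, by 0.55 (SE 0.07, limma adjusted p = 1.85e-06).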
